A study of Mus musculus with 8 samples.

Results

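The piRNA pathway and chromatoid body genes examined here are 33 genes, chosen as the rows of the deposited table whose gene symbol stands in a list of known members. All 33 were found among the 19906 genes of the table, and all 33 passed the filter on low counts that left 15787 genes for testing. RNA was taken from whole testes of mice aged 2 months, 4 labelled Tmem232-/- and 4 labelled Tmem232+/+, with 1 library per mouse and no treatment named in the labels. The Tmem232-/- mice carry a germline deletion of a fragment of Tmem232 made with CRISPR-Cas9 in C57BL/6 oocytes, so every cell of the testis carries it, and the Tmem232+/+ mice are the wild type. Tmem232 encodes a transmembrane protein of the testis. The comparison asks whether the transcripts of these genes differ between the 2 genotypes.

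piRNAs are small RNAs of germ cells that are bound by PIWI proteins and guide them to transposon transcripts, and in the adult mouse testis also to other transcripts. They are made from long precursor transcripts, by helicases, nucleases and trimming enzymes that sit in part at the surface of mitochondria. The chromatoid body is a perinuclear granule of round spermatids that gathers PIWI proteins, tudor domain proteins and RNA helicases. Tudor domains bind methylated arginines, among them those that Prmt5 and its cofactor Wdr77, the methylosome, place on PIWI proteins.

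The library totals lay between 15428421 and 16350871 counts. Levels are given as counts per 1000000 counts after scaling of the libraries by the TMM method (CPM), and differences as the log2 fold change of the libraries labelled Tmem232-/- over those labelled Tmem232+/+. A gene was called at an adjusted p under 0.05 in the quasi-likelihood test of edgeR, adjusted by Benjamini-Hochberg over the 15787 genes. Tmem232 itself was higher in the libraries labelled Tmem232-/- (131 ± 11.8 against 109 ± 2.08 CPM, SD, n = 4, log2 fold change 0.27, adjusted p = 0.0335 from edgeR). It was called in 13 of the 18 alternative analyses, with adjusted p-values up to 0.114, and not with the replicate block or without replicate 1 or 2 of Tmem232-/- or replicate 2 or 4 of Tmem232+/+. The table gives a single count for the whole gene, so the deleted part could not be looked at on its own, and the count speaks neither for nor against the deletion. It therefore did not verify the labels, and every direction below is that of the libraries as labelled. Since whole testis was sequenced, fewer cells of a type and less RNA per cell cannot be told apart. None of the germ cell markers listed was at 0 in all libraries, and those of spermatids differed between the genotypes. All 12 markers of round spermatids and 10 of the 12 of elongating spermatids were called higher, and 2 of the 10 markers of spermatocytes and 3 of the 11 of spermatogonia were called lower.

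Of the 33 genes, Gtsf1l and Gtsf2 rose and Gpat2 fell, and the other 30 were not called. Gtsf1l was called whichever library was left out, Gtsf2 was not called without replicate 1 of Tmem232-/-, and Gpat2 was called in 0 of the 8 fits that left out a library. Gtsf1l rose 2.53-fold and Gtsf2 1.51-fold, and both belong to the Gtsf1 family of zinc finger cofactors of PIWI proteins. The 2 genes called higher are 6.06% of the list, while 10.3% of all tested genes were called higher. The gene called lower is 3.03% of the list, beside 1.46% of all tested genes, a share that ran from 0.232% without replicate 1 of Tmem232+/+ to 2.24% without replicate 4 of Tmem232-/- when each library was left out in turn. Where a 2-fold difference was also asked for, with unadjusted P below 0.05, Gtsf1l alone was higher and 0 of the 33 genes were lower, beside 5.48% and 0.114% of all tested genes. At an unadjusted P under 0.05 without a fold limit, edgeR gave 2 genes higher and 6 lower (Snd1, Mov10l1, Prmt5, Fkbp6, Gpat2 and Exd1), beside 14.6% and 10.5% of all tested genes. DESeq2 and limma-voom each called 3 of the 33, 2 higher and 1 lower. Of all genes tested, DESeq2 called 9.13% higher and 1.11% lower, and limma-voom 10.3% and 1.47%.

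The fitted log2 fold change was positive for 12 of the 33 genes and negative for 21. Their median was -0.05, and that of all tested genes was also -0.05. For 29 of the 30 genes that were not called, the 95% interval of the fold change lay inside 1.5-fold in both directions. Piwil4, a nuclear PIWI protein of fetal germ cells, was the exception, and its interval lay inside 2-fold. The log2 fold changes of these 30 genes ran from -0.25 to 0.22.

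**Figure D1:**
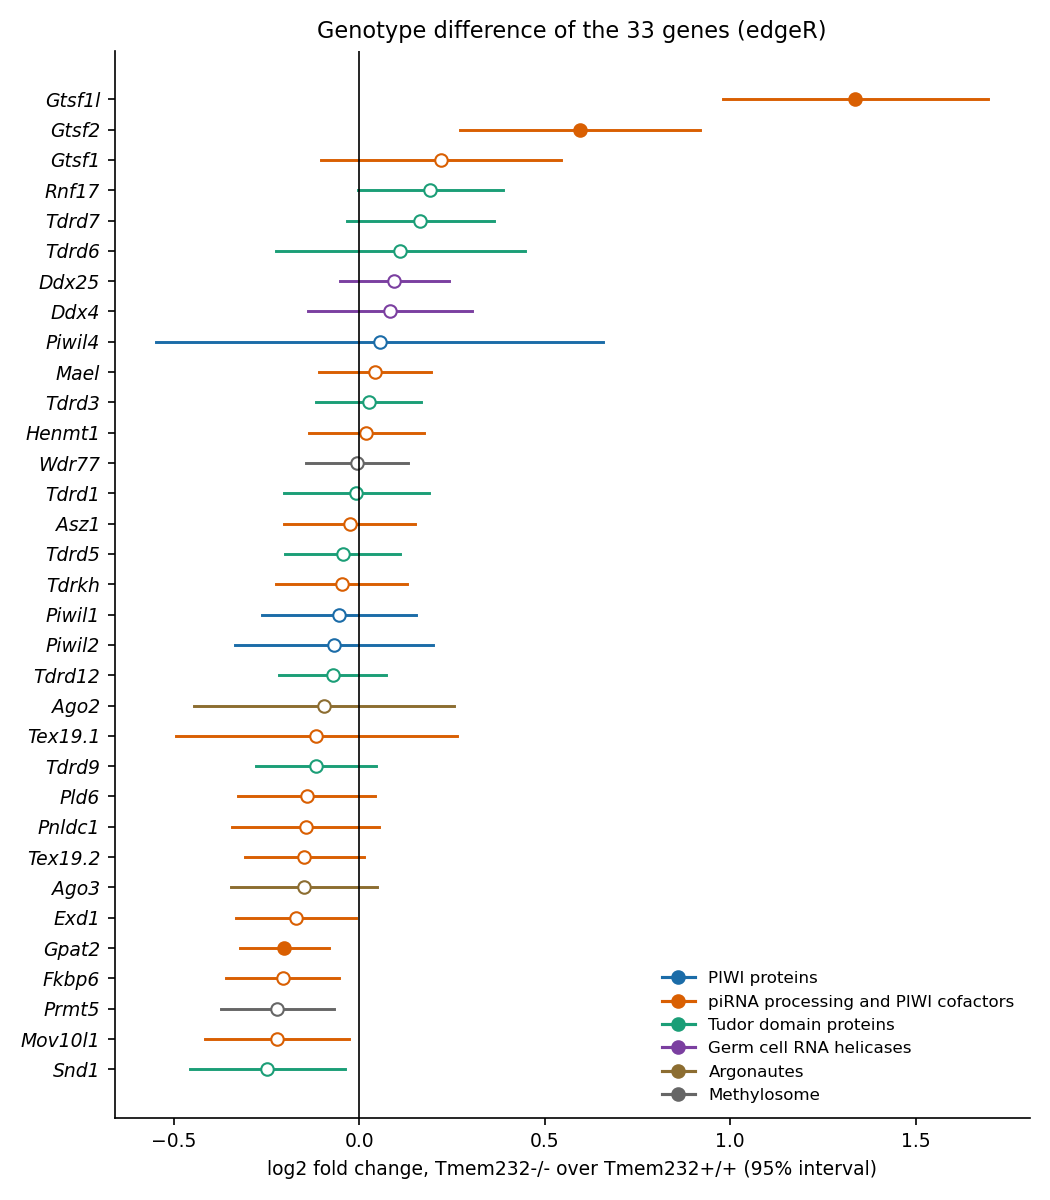
Log2 fold change (x axis, Tmem232-/- over Tmem232+/+) of each of the 33 genes, ordered from highest to lowest, with its 95% interval from edgeR. Colours mark the role of the gene, filled points an adjusted p under 0.05 and open points the others, so that Gtsf1l (1.34) and Gtsf2 (0.59) stand at the top and Gpat2 (-0.20) is the single filled point below 0.

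The sequences before the RefSeq starts of the 3 called genes are shown because these genes were called. That of Gtsf1, the founding member of its family, was added after its values were seen. Each is the 250 bases before the RefSeq start in GRCm38.p6, written 5′ to 3′ in the direction of the gene, with every CG dinucleotide in capitals. The windows are chr2:163089602-163089851 (minus strand) for Gtsf1l, chr15:103448460-103448709 (minus strand) for Gtsf2, chr15:103430428-103430677 (minus strand) for Gtsf1 and chr2:127424949-127425198 (plus strand) for Gpat2. The Gtsf2 window lies within the span that the deposited table lists for this gene, so the RefSeq start used for it is not the outermost start in the table.
Gtsf1l: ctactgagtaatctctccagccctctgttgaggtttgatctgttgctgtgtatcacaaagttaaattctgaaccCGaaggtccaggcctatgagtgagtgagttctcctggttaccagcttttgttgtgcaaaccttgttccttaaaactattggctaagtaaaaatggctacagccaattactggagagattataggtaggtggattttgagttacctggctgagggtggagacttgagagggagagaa
Gtsf2: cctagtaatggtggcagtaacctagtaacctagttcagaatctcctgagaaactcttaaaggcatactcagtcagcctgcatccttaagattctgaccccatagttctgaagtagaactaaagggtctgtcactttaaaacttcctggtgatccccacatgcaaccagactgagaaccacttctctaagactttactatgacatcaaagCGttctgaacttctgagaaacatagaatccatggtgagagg
Gtsf1: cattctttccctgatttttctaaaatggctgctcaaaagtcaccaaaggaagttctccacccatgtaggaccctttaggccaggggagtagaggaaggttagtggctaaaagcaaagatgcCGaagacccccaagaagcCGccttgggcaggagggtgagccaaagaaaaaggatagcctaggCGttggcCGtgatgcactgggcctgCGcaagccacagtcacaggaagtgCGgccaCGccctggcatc
Gpat2: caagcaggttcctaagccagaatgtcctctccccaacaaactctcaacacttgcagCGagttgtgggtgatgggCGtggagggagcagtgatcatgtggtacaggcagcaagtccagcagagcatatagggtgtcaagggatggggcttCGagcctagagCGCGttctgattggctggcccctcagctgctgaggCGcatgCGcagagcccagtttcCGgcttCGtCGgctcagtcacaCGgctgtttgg

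Windows were found for 28 of the 33 genes, 36 windows in all. The Gtsf2 and Gtsf1l windows had the lowest GC contents of the 36, at 42.8% and 44.0%, and each held 1 CG dinucleotide. The Gtsf1 window had 54.4% GC and 7 CG dinucleotides, and the Gpat2 window 58.4% and 11. Over the 36 windows the medians were 58.8% and 15.5, against 52.4% and 6 over all 32851 windows of the reference table. At most 1 CG dinucleotide was found in 3 of the 36 windows and in 18.8% of all windows. The letters GGCAGTT, a MYB type motif, were found on either strand in 2 of the 36 windows, those of Piwil1 and Tdrd7, and in 3.33% of all windows. The CRE type letters TGACGTC and the RFX type letters GTTGCCA were found in 0 of the 36, beside 2.78% and 3.66% of all windows.

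Compared per transcript length, as FPKM deposited by the authors, the 33 genes spanned a wide range in the testis. Mael, which encodes a germ granule protein needed for transposon silencing, had the highest level, with 998 ± 33.5 FPKM in Tmem232+/+ and 1004 ± 42.8 in Tmem232-/- (SD, n = 4). In Tmem232+/+ it was followed by the RNA helicases Ddx25 (351 ± 17.1) and Ddx4 (281 ± 25.4), Gtsf1 (278 ± 66.3) and Piwil1 (235 ± 8.88). Ddx4, Gtsf1 and Piwil1 lay closer to each other than the SD of Gtsf1. At the low end stood Ago2 (3.53 ± 0.597), Ago3 (3.47 ± 0.316) and Piwil4 (0.350 ± 0.0424), and Ago2 and Ago3 differed by less than their SD. The median was 58.6 FPKM over the 33 genes and 4.64 over all genes of the table, 30 of the 33 were above 10 FPKM, and 8 were above 100.

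The order of levels was largely shared by the genotypes, with 17 of the 33 genes at the same rank in both. Gtsf1l stood at rank 11 in Tmem232+/+ and at rank 6 in Tmem232-/-, and Gtsf2 at ranks 12 and 9. Between mice of a genotype the CPM varied little, with a median coefficient of variation over the 33 genes of 7.92% in Tmem232-/- and 7.70% in Tmem232+/+. The lowest were 1.78% for Ddx25 in Tmem232-/- and 0.823% for Gpat2 in Tmem232+/+. The highest were 33.7% for Piwil4 in Tmem232-/- and 25.2% for Gtsf1l in Tmem232+/+.

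**Figure D2:**
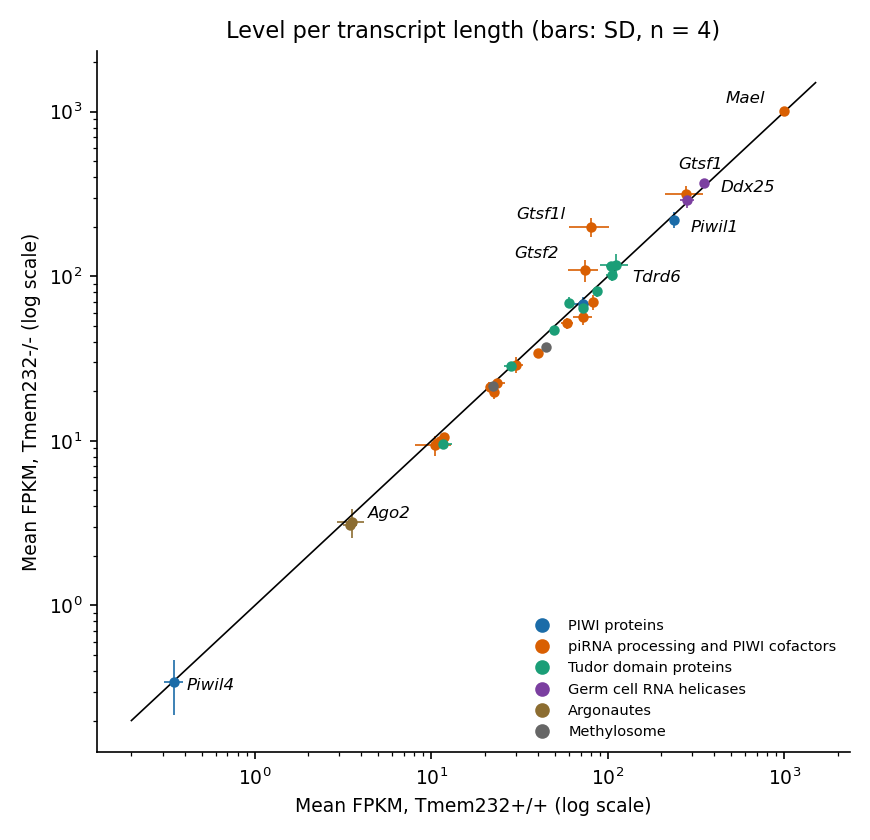
Mean FPKM of each of the 33 genes in the 4 Tmem232+/+ libraries (x axis) and in the 4 Tmem232-/- libraries (y axis), both on log scales, with SD as bars and the line of equal levels. Levels ran from 0.350 FPKM for Piwil4 to 998 for Mael in Tmem232+/+, and Gtsf1l and Gtsf2 lie visibly above the line.

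Gtsf1, Gtsf1l and Gtsf2 encode small zinc finger proteins, of which Gtsf1 binds PIWI proteins and enables target cleavage. Gtsf1l (Entrez ID 68236, chr2:163087031-163089601 in the table) stood at 163, 139, 117 and 149.9 CPM in replicates 1 to 4 labelled Tmem232-/- and at 55.3, 40.5, 74.9 and 54.4 in those labelled Tmem232+/+. The lowest Tmem232-/- library was thus above the highest Tmem232+/+ library. The means were 142 ± 19.5 and 56.3 ± 14.2 CPM (SD, n = 4), which is a log2 difference of 1.34 (standard error 0.163, 95% interval 0.98 to 1.70, edgeR adjusted p = 0.000185). The exact permutation test of CPM over the 70 arrangements gave a two-sided p of 0.029, the smallest that 4 libraries against 4 allow, as it does whenever the groups do not overlap. Gtsf1l was called in all 18 alternative analyses, with log2 fold changes from 1.21 to 1.54 and adjusted p-values up to 0.00144.

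Gtsf2 (Entrez ID 223927, chr15:103438950-103450082), the neighbour of Gtsf1 on the same chromosome, stood at 74.9, 58.2, 51.5 and 58.2 CPM in Tmem232-/- and at 39.9, 29.9, 48.6 and 42.5 in Tmem232+/+. The groups did not overlap, but the lowest Tmem232-/- value lay close to the highest Tmem232+/+ value. The means were 60.7 ± 9.99 and 40.2 ± 7.80 CPM (SD, n = 4), which gave a log2 fold change of 0.59 (standard error 0.147, 95% interval 0.27 to 0.92, edgeR adjusted p = 0.0211, exact permutation two-sided p = 0.029). Without replicate 1 of Tmem232-/-, the library with the highest level, the log2 fold change was 0.48 and the edgeR adjusted p was 0.0639. In the 17 other alternatives Gtsf2 was called.

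Gtsf1 (Entrez ID 74174, chr15:103402458-103430446) stood at 204, 163, 159 and 198 CPM in Tmem232-/- and at 148, 123, 207 and 142 in Tmem232+/+. Replicate 3 of Tmem232+/+ was the highest of all 8 libraries, and the groups overlapped. The means were 181 ± 23.1 and 155 ± 36.2 CPM (SD, n = 4), which gave a log2 fold change of 0.22 (95% interval -0.10 to 0.54, edgeR adjusted p = 0.385). Without that replicate the log2 fold change was 0.42 and the edgeR adjusted p was 0.0154, and in the other 17 alternatives Gtsf1 was not called. How the counting treated reads that could match more than 1 of these related genes is not given in the sources used here.

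Ratios within a library were added after the values had been seen, as a description without correction for transcript length. The exact permutation test was also run on them. Its p-values are not used here, since the ratios were picked from these same values. The log2 ratio of Gtsf1l to Gtsf1 in CPM was -0.35 ± 0.0971 in Tmem232-/- and -1.47 ± 0.0966 in Tmem232+/+ (SD, n = 4). These ratios did not overlap between the genotypes, and their means differed by 1.12. Gtsf1l to Gtsf2 had a log2 ratio of 1.23 ± 0.105 and 0.47 ± 0.113 (SD, n = 4), also without overlap. For Gtsf2 to Gtsf1 the log2 ratios were -1.58 ± 0.148 and -1.94 ± 0.16 (SD, n = 4), and these overlapped, with a difference of 0.36.

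**Figure D3:**
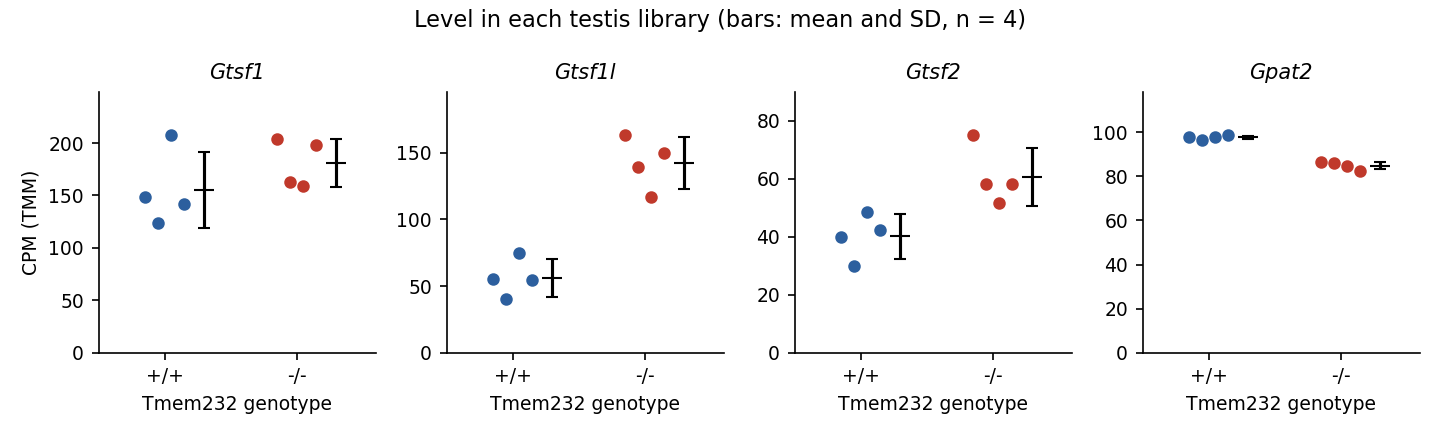
CPM (y axis, from 0) of Gtsf1, Gtsf1l, Gtsf2 and Gpat2 in each testis library, by Tmem232 genotype, with the mean and SD of 4 libraries beside the points. Gtsf1l and Gtsf2 lie higher in all 4 Tmem232-/- libraries than in any Tmem232+/+ library, Gpat2 lies lower by a small step with a narrow spread, and the points of Gtsf1 overlap.

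Gpat2, a mitochondrial protein related to acyltransferases that takes part in primary piRNA production, was the gene called lower. Gpat2 (Entrez ID 215456, chr2:127425167-127436092) stood at 86.4, 85.9, 84.8 and 82.3 CPM in Tmem232-/- and at 97.8, 96.5, 97.7 and 98.5 in Tmem232+/+. All 4 Tmem232-/- libraries were below all 4 others, and both groups were narrow. The means were 84.8 ± 1.81 and 97.6 ± 0.803 CPM (SD, n = 4), which is a log2 difference of -0.20 (standard error 0.0549, 95% interval -0.32 to -0.08, edgeR adjusted p = 0.0346, exact permutation two-sided p = 0.029). The call was lost whichever of the 8 libraries was left out, with edgeR adjusted p-values from 0.0639 to 0.170, and it held in 7 of the 18 alternatives, with the log2 fold change between -0.24 and -0.16 in all 18. As annotated there, 8403 bases of Gpat2 overlap Fahd2a, whose level was 18 CPM in Tmem232-/- and 18.6 in Tmem232+/+ (log2 fold change -0.05, edgeR adjusted p = 0.818), and whether counting used strand is not given in the sources used here.

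Among the 33 genes, Prmt5 and Fkbp6 also had lower levels in all 4 Tmem232-/- libraries but were not called. With Gpat2 these are 3 genes without overlap in that direction, and Gtsf1l and Gtsf2 are the 2 in the other, while 6.88% and 11.8% of all tested genes did not overlap in those directions. Prmt5, the arginine methyltransferase of the methylosome, stood at 94.8, 97.0, 97.7 and 84.6 CPM in Tmem232-/- and at 112, 109, 101 and 113 in Tmem232+/+. Replicate 4 was the lowest Tmem232-/- library for this gene, and replicate 3 the lowest Tmem232+/+ library. The log2 fold change was -0.22 (standard error 0.0694, edgeR adjusted p = 0.066, exact permutation two-sided p = 0.029), and 3 of the 18 alternatives called it, with adjusted p-values from 0.0188 to 0.276 over the 18. Its cofactor Wdr77 had a log2 fold change of -0.01 (95% interval -0.14 to 0.13), with 74.2 ± 1.45 and 74.6 ± 4.19 CPM (SD, n = 4).

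Fkbp6, a cochaperone of the heat shock protein that helps load piRNAs onto Piwil2, stood at 84.1, 83.5, 79.9 and 95.2 CPM in Tmem232-/- and at 95.6, 99.1, 103 and 97.3 in Tmem232+/+. Replicate 4 of Tmem232-/- lay just under the lowest Tmem232+/+ library. The log2 fold change was -0.21 (standard error 0.0693, edgeR adjusted p = 0.0861, exact permutation two-sided p = 0.029). Without that replicate it was -0.25 with an edgeR adjusted p of 0.027, and over the 18 alternatives the adjusted p-values ran from 0.027 to 0.24.

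Of the 3 PIWI genes, 0 were called by edgeR, DESeq2 or limma-voom, beside 10.3% of all tested genes called higher and 1.46% lower in edgeR. In edgeR, 0 of the 3 had an unadjusted P under 0.05, beside 14.6% of all tested genes higher and 10.5% lower. With 3 genes there are too few to read a count against these shares. Piwil1, which binds the pachytene piRNAs of meiotic and haploid cells, stood at 906, 856, 909 and 681 CPM in Tmem232-/- and at 913, 848, 816 and 902 in Tmem232+/+. Only replicate 4 of Tmem232-/- lay below the Tmem232+/+ range. The log2 fold change was -0.05 (95% interval -0.26 to 0.15, edgeR adjusted p = 0.757), and it was 0.05 in the highest of the 18 alternatives and -0.10 in the lowest.

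Piwil2, which acts in piRNA production of earlier germ cells and persists through meiosis, stood at 319.8, 359.7, 351 and 273 CPM in Tmem232-/- and at 356, 387, 265 and 359 in Tmem232+/+. The lowest library of each genotype, replicate 4 of Tmem232-/- and replicate 3 of Tmem232+/+, lay at about the same level, and the groups overlapped. Piwil2 had a log2 fold change of -0.07 (95% interval -0.34 to 0.20, edgeR adjusted p = 0.759). Piwil4 had 11 to 23 counts per library, which is 0.732, 0.816, 1.45 and 1.35 CPM in Tmem232-/- and 0.997, 1.21, 0.887 and 1.11 in Tmem232+/+. Its Tmem232-/- libraries lay on both sides of the Tmem232+/+ range, and the log2 fold change was 0.05 (95% interval -0.55 to 0.66, edgeR adjusted p = 0.921). Differences within this interval were not excluded.

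Mov10l1, the helicase that feeds piRNA precursors into processing, stood at 178, 197, 193 and 163 CPM in Tmem232-/- and at 219, 234, 185 and 216 in Tmem232+/+. Replicate 3 of Tmem232+/+ lay within the Tmem232-/- range and the other 3 above all Tmem232-/- libraries. Its log2 fold change was -0.22 (95% interval -0.42 to -0.03, edgeR adjusted p = 0.145), and 0 of the 18 alternatives called it. The other processing factors were Pld6, the mitochondrial nuclease, with -0.14, Asz1, a scaffold protein of the mitochondrial surface, with -0.03, Pnldc1, which trims piRNA 3′ ends, with -0.14, and Henmt1, which methylates them, with 0.02. None of these 4 was called, and their adjusted p-values in edgeR ran from 0.323 to 0.891.

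Tdrkh, a tudor protein that anchors the trimming step at mitochondria, had a log2 fold change of -0.05 (edgeR adjusted p = 0.75). In the table Tdrkh shares 1468 bases with Oaz3, an elongating spermatid gene that rose from 88.4 to 270 CPM (log2 fold change 1.61, edgeR adjusted p = 0.000235), and Tdrkh is the single gene of the 33 whose counts were not whole. Its part in the value of Tdrkh was not tested. Exd1, a partner of Tdrd12 in piRNA production, had a log2 fold change of -0.17 (edgeR adjusted p = 0.174). Mael stood at 1396 ± 82.9 CPM in Tmem232-/- and 1356 ± 61.9 in Tmem232+/+ (SD, n = 4), a log2 fold change of 0.04. The germ cell proteins Tex19.1 and Tex19.2, a pair of related genes, had log2 fold changes of -0.12 and -0.15 and were not called.

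**Figure D4:**
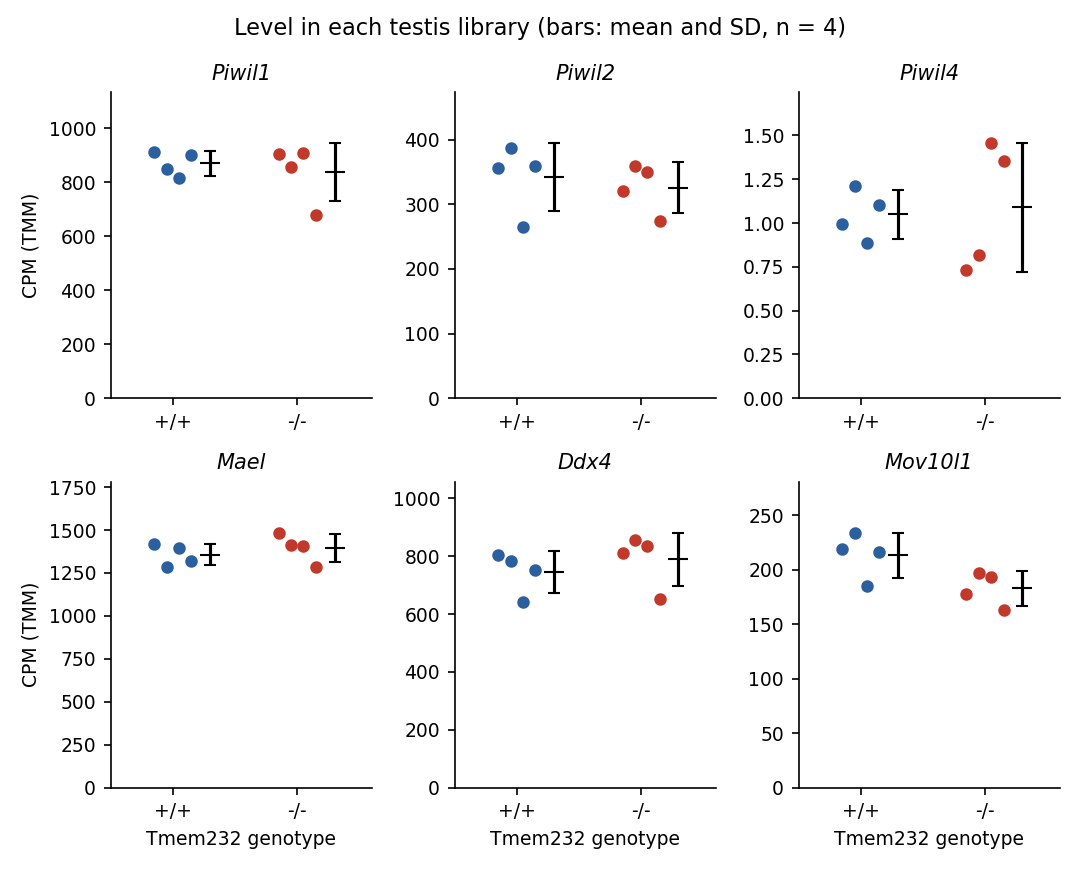
CPM (y axes, from 0) of Piwil1, Piwil2, Piwil4, Mael, Ddx4 and Mov10l1 in each testis library, by Tmem232 genotype, with the mean and SD of 4 libraries beside the points. The genotypes overlap for all 6 genes, and the lowest Tmem232-/- library stands at 681 CPM for Piwil1 and at 653 CPM for Ddx4.

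The 9 genes of tudor domain proteins held 0 calls by edgeR, DESeq2 and limma-voom. Of all tested genes, edgeR called 10.3% higher and 1.46% lower. At an unadjusted P under 0.05 there were 0 of the 9 higher and 1 lower, beside 14.6% and 10.5% of all tested genes. So few genes give no result about the group from such counts. Their median log2 fold change was -0.01, with a range from -0.25 for Snd1 to 0.19 for Rnf17. Snd1, a widely expressed nuclease with a tudor domain, had an edgeR adjusted p of 0.132, and without replicate 3 of Tmem232+/+ a log2 fold change of -0.30 with an adjusted p of 0.0287 (range over the 18 alternatives 0.0287 to 0.359). Rnf17, a tudor protein of germ granules, had an edgeR adjusted p of 0.207, and without replicate 4 of Tmem232-/- a log2 fold change of 0.28 with an adjusted p of 0.0177 (range 0.0177 to 0.388). Each was called in that 1 alternative of the 18.

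Tdrd6, Tdrd7 and Tdrd1 are tudor proteins of the chromatoid body or of the granules that precede it. Tdrd6, needed for the structure of the chromatoid body, had 823 ± 144 CPM in Tmem232-/- and 762 ± 143 in Tmem232+/+ (SD, n = 4) and a log2 fold change of 0.11 with a 95% interval from -0.22 to 0.45. Tdrd7 had a log2 fold change of 0.16 (edgeR adjusted p = 0.286), Tdrd1 -0.01, Tdrd5 -0.04 and Tdrd3 0.03. The helicase Tdrd9 had -0.12 (edgeR adjusted p = 0.357), was called lower in 1 of the 18 alternatives, the FPKM as log2 of the value plus 1 (adjusted p = 0.0386, range 0.0386 to 0.769), and Tdrd12, another tudor protein with a helicase domain, had -0.07.

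Both germ cell RNA helicases had small positive differences that were not called. Ddx4, the conserved germ cell helicase known as Vasa and a marker of the chromatoid body, stood at 811, 856, 835 and 653 CPM in Tmem232-/- and at 804, 783, 641 and 752 in Tmem232+/+. Here 3 of the 4 Tmem232-/- libraries lay above the Tmem232+/+ range, and replicate 4 lay near its lower end. Ddx4 had a log2 fold change of 0.08 (95% interval -0.14 to 0.30, edgeR adjusted p = 0.645). Ddx25, a helicase of spermatids that exports and stores transcripts, had 557 ± 9.92 and 521 ± 36.6 CPM (SD, n = 4) with a log2 fold change of 0.09 (edgeR adjusted p = 0.41).

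The Argonautes Ago2 and Ago3, which bind microRNAs, had log2 fold changes of -0.09 and -0.15 (edgeR adjusted p = 0.747 and 0.331). As annotated, 2721 bases of Ago3 overlap Tekt2, a flagellar gene with 217 CPM in Tmem232-/- and 148 in Tmem232+/+ (log2 fold change 0.55, edgeR adjusted p = 0.00381). The spans in the table join all transcripts of a gene and some cover unrelated genes, so an overlap of spans need not be an overlap of exons. By these spans Pnldc1 and Tdrd6 lie wholly within 1700001C19Rik, which rose from 8 to 28.3 CPM (log2 fold change 1.82, edgeR adjusted p = 0.00049). The spans of Trem1 (1.48, edgeR adjusted p = 0.00895) and Nfya (-0.19, edgeR adjusted p = 0.121) also cover both. That of H2-K1 (-0.23, edgeR adjusted p = 0.0695) covers Pnldc1. The part of these genes in the values of Pnldc1 and Tdrd6 was not tested.

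Summed over the 33 genes, the levels ran from 7267 to 8516 CPM in Tmem232-/- and from 7378 to 8371 in Tmem232+/+. Replicate 4 of Tmem232-/- had the lowest sum and the highest level of its group for only 2 of the 33 genes. Deviations were taken on a log2 scale from each gene's own mean over all 8 libraries, so they include any difference between the genotypes. In that library their median was -0.12 for the 33 genes and 0.00 for all tested genes. In replicate 3 of Tmem232+/+, which had the lowest sum of its genotype, the medians were -0.06 and -0.01. When replicate 4 of Tmem232-/- was left out, 18 of the 33 log2 fold changes were positive and their median was 0.01, and all tested genes had a median of -0.04. Without replicate 1 of Tmem232+/+, where the median deviation was 0.08, the medians were 0.01 for the 33 genes, of which 17 were positive, and -0.01 for all tested genes.

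Other genes of the pathway were taken from a list of 37 further piRNA, RNA granule and arginine methylation factors, of which 35 were in the table and tested. Of the 35, 2 were called higher (5.71%, beside 10.3% of all tested genes), 3 lower (8.57%, beside 1.46%) and 30 not called. With a library left out, 0 or 1 of the 35 were called lower, beside 0.232% to 2.24% of all tested genes. The median log2 fold change of the 35 was -0.06. Kif17, a kinesin that shuttles a transcription cofactor in spermatids and associates with the chromatoid body, stood at 123, 134, 106 and 101 CPM in Tmem232-/- and at 51.7, 49.0, 59.0 and 60.1 in Tmem232+/+ (log2 fold change 1.08, edgeR adjusted p = 4.77e-05). Dnmt3l, a cofactor of de novo DNA methylation that acts downstream of piRNAs in fetal germ cells, stood at 7.05, 5.84, 6.26 and 6.21 CPM in Tmem232-/- and at 2.68, 2.66, 3.55 and 3.50 in Tmem232+/+ (log2 fold change 1.03, edgeR adjusted p = 0.000508). Neither gene's groups overlapped, and both were called in all 18 alternatives.

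The 3 partner genes called lower had small differences. They were Btbd18, which helps transcribe pachytene piRNA precursors (12.5 ± 0.966 against 15.8 ± 1.32 CPM, SD, n = 4, log2 fold change -0.34, edgeR adjusted p = 0.0441), Upf1, a helicase of nonsense-mediated decay (-0.26, 0.0252), and Tnrc6a, an Argonaute partner (-0.21, 0.0383). Of the 18 alternatives, 4 called Btbd18, 10 Upf1 and 5 Tnrc6a. Mybl1, the transcription factor that drives pachytene piRNA loci, had 134 ± 14.5 and 130.4 ± 12.1 CPM (SD, n = 4) with a log2 fold change of 0.04 (edgeR adjusted p = 0.831). Tex15, a PIWI partner in fetal silencing, had 0.11, and Ybx2 and Pabpc1, binding proteins of stored mRNA, had -0.11 and 0.01.

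Marker genes of germ cells were summed in each library. The summed level of the 12 round spermatid markers ran from 1156 to 1471 CPM in Tmem232-/- and from 524 to 760 in Tmem232+/+, with a median log2 fold change of 1.12. That of the 12 elongating spermatid markers ran from 4250 to 5261 and from 2951 to 3623 CPM, with a median of 1.64. For the 10 spermatocyte markers the sums were 2202 to 2588 and 2367 to 2545 CPM with a median of -0.13, and for the 11 spermatogonial markers 278 to 307 and 326 to 358 CPM with a median of -0.26. Among somatic markers, those of Leydig cells summed to 481 to 711 and 308 to 540.2 CPM with a median log2 fold change of 0.41, and edgeR called 0 of 8, with 5 higher at an unadjusted P under 0.05, 2 called by DESeq2 and 1 by limma-voom. Those of peritubular myoid cells summed to 239 to 283 and 270.0 to 324 CPM with a median of -0.35, and 1 of 6 was called higher and 2 lower. None of these markers was at 0 in all libraries. The part of these cell types in the differences of Gtsf1l, Gtsf2, Kif17 and Gpat2 was not tested.

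**Figure D5:**
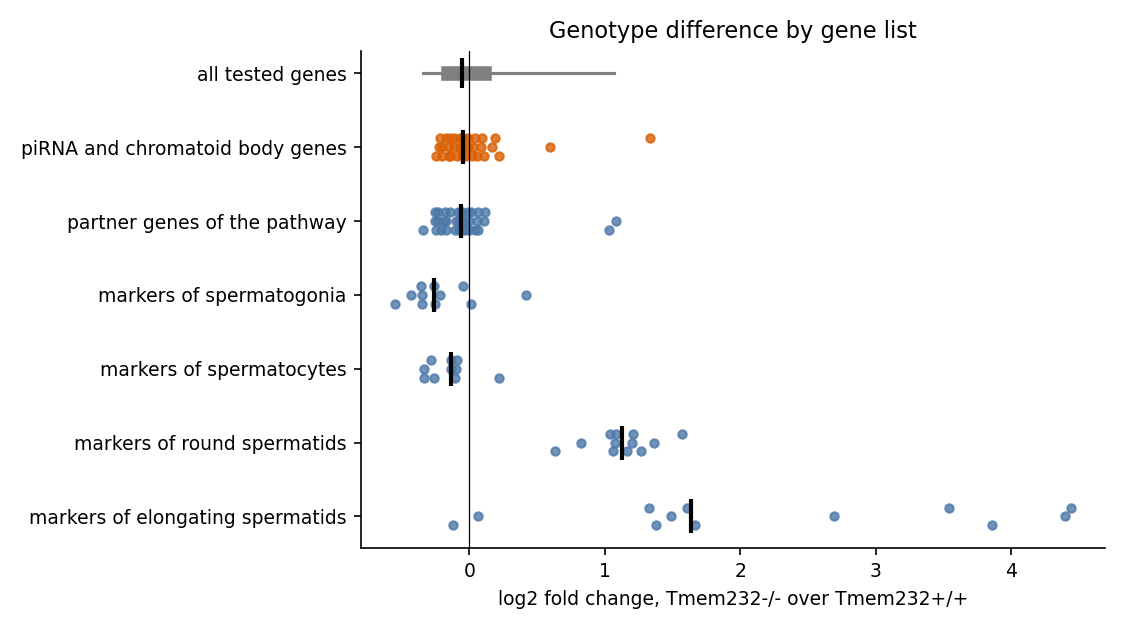
Log2 fold change (x axis, Tmem232-/- over Tmem232+/+) of the 33 genes, of the 35 partner genes and of the germ cell markers, 1 point per gene, with the median of each list as a bar. For all tested genes the box spans the quartiles and the line the 5th to 95th percentiles, and the 33 genes lie with their median at -0.05 while the round spermatid markers have theirs at 1.12.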

How the data were processed

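Whole testis RNA was sequenced from 4 mice per genotype, and groups and replicate numbers were taken from the labels. According to the labels and methods the authors prepared libraries with a TruSeq kit, mapped reads to GRCm38.p6 with HISAT and Bowtie2, counted them with StringTie and featureCounts and compared genotypes with DESeq2. Versions and the strand setting are not given in the sources used here. The deposited estimated counts carry no normalization, 10.7% to 11.2% of genes per library have a count that is not whole, and counts were rounded. As deposited, FPKM scales the counts to transcript length and library. The log2 fold change, p-value and q-value columns deposited by the authors hold their own comparison and were not used. The table held 0 columns of other series.

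Genotypes were compared in R 4.3.3 with edgeR 4.0.16 (default filter on low counts, TMM, quasi-likelihood test, no covariates) with Benjamini-Hochberg adjustment over 15787 genes. The 33 genes, the 35 partner genes and Tmem232 were each also compared by a two-sided exact permutation test of CPM over 70 arrangements, whose p-values are not adjusted. The same test was run on the ratios among the Gtsf genes. Intervals are at 95%, and cover the spread between libraries and counting error. The fits were tested on simulated data. Alternatives were DESeq2 1.42.0, limma-voom (limma 3.58.1), other scalings and filters, FPKM with pseudocounts of 0.1 and 1 in limma, a replicate block, a stricter adjusted p of 0.01 and each library left out. Where a library was left out the spread was pooled over the others.

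The members and lists were chosen with earlier results of these data known. All 33 genes are named, with values in every library for those called or without overlap between genotypes and for Piwil1, Piwil2, Piwil4, Ddx4 and Mov10l1. Gtsf1 was given in every library after its values were seen. Partner genes were named when called, and Mybl1, Tex15, Ybx2 and Pabpc1 were chosen after their values were seen. Sequences come from the RefSeq promoter table, matched by Entrez ID. Gene positions are those of the deposited table. Tables and plots used Python 3.11.15, pandas 2.3.3, scipy 1.17.1 and matplotlib 3.10.9.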

Additional observations from a re-analysis of the deposited data

Results flagged for a closer look

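In 92 groups of 4 libraries, formed by the 2 genotypes and the genes and marker sums described, the distance of the highest or lowest library from its neighbour was compared with the range of the group. In 6 groups 1 library stood apart, and chance alone gives about 1 in 20 groups. Replicate 3 of Tmem232+/+ was low for Tex19.1 (10.5 CPM, next 17.8) and for Tdrd1 (426 CPM, next 504) and high for Tdrd3 (86.4 CPM, next 78.6). Replicate 4 of Tmem232-/- was low for Rnf17 (240 CPM, next 298). For the summed markers of red blood cells replicate 3 of Tmem232+/+ was low (305 CPM, next 546). For the summed markers of the epididymis, which were near 0 in several libraries, replicate 1 of Tmem232-/- was high in its group (6.32 CPM, next 1.35), and replicates 1 and 3 of Tmem232+/+ were higher still, at 27.8 and 10.45 CPM.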

How the results depend on the processing

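The count of 2 genes higher held in the 10 refits that kept all libraries. It was 1 at an adjusted p under 0.01, and between 1 and 3 with a library left out. The 1 gene lower became 0 with DESeq2 size factors in edgeR, without a filter on low counts, with the replicate block and at an adjusted p under 0.01. It became 2 with FPKM plus 0.1 and with library size alone (Gpat2 and Prmt5), and 3 with FPKM plus 1 (also Tdrd9). Of all genes, 1.83% were lower with FPKM plus 0.1, 2.63% with library size alone and 2.0% with FPKM plus 1, beside 1.46% in the main fit. With a library left out, 0 or 1 of the 33 were called lower, and never Gpat2. Without replicate 4 of Tmem232-/- the gene lower was Fkbp6, and without replicate 3 of Tmem232+/+ it was Snd1. The median log2 fold change of the 33 genes ran from -0.0893 to 0.0113 with a library left out, and was 0.0113 without replicate 4 of Tmem232-/- and 0.0095 without replicate 1 of Tmem232+/+. The 3 partner genes lower became 2 with DESeq2 in place of edgeR, with FPKM plus 0.1 and with at least 10 counts in every library. They became 1 with DESeq2 size factors and with FPKM plus 1, and 0 without a filter and with the replicate block. With a library left out they were 0 or 1. The cause of these changes was not tested.

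Over all genes, 1633 were called higher and 230 lower, against 1702 and 131 with DESeq2 size factors, 1561 and 415 with library size alone and 1824 and 71 without a filter. With a library left out, 1356 to 1865 were higher and 37 to 356 lower. Same-numbered libraries of the genotypes had correlations of their deviations of -0.061, 0.072, -0.332 and -0.105. Those with unlike numbers ran from -0.316 to 0.393. So few values cannot decide whether the numbers pair the libraries. The replicate block gave 1317 higher and 28 lower. Replicate 4 of Tmem232-/- and replicate 3 of Tmem232+/+ decided the calls of Fkbp6, Rnf17, Snd1 and Gtsf1 named in the report. Piwil4 had 11 to 23 counts per library, and the parts of counting error and of spread between mice in its interval were not separated.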
